A study of Homo sapiens with 6 samples.

Results

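The 10 genes described here encode subunits of the SIN3-histone deacetylase complex: SIN3A, SIN3B, HDAC1, HDAC2, ARID4A, ARID4B, RBBP4, RBBP7, SAP30 and SUDS3. They were taken by name from the 20037 protein-coding genes of the RefSeq gene table for GRCh38.p14, and all 10 were found in it. Chromatin occupancy was measured by CUT&RUN, in which an antibody tethers a nuclease to a chromatin protein and the DNA cut free around it is sequenced. The 6 libraries came from wild-type cells of H1, a human embryonic stem cell line, at day 30. Of these, 4 were made with an antibody to the zinc-finger transcription factor MYT1L and 2 with IgG, which has no chromatin target and gives the background. The series describes the cells as cortical interneurons obtained from the stem cells, while the sample labels still give embryonic stem cells as the cell type. No expression was measured, so the cell type could not be checked against marker genes. The labels do not say whether replicates were separate cultures, so their spread may be technical. Peaks were counted for a gene when they overlapped its body or the 5 kb beyond either end, called its window here.

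The SIN3 complex does not recognise DNA sequence itself. SIN3A and SIN3B are alternative scaffolds that dock onto DNA-bound repressors through paired amphipathic helix domains, and they carry the deacetylases HDAC1 and HDAC2, which remove acetyl groups from histone tails. RBBP4 and RBBP7 bind histones, SAP30 and SUDS3 help to hold the deacetylase module on the scaffold, and ARID4A and ARID4B are large chromatin-reader subunits first known as retinoblastoma-binding proteins. Proteins of the MYT1 family are reported to recruit SIN3 and its deacetylases when they silence genes outside the neuronal programme.

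All 10 genes had a peak in at least 1 MYT1L library, and none had a peak in either IgG library. MYT1L replicates 1 to 4 had a peak in the windows of 9, 7, 7 and 10 of the genes, a mean of 8.25 ± 1.5 (SD, n = 4). The counts lay above those of IgG replicates 1 and 2, which were 0 and 0. Over all protein-coding genes the share with a peak was 68.0%, 43.0%, 57.3% and 77.6% in MYT1L replicates 1 to 4. In IgG replicates 1 and 2 it was 1.61% and 2.9%. In each MYT1L library the share of the SIN3 complex genes therefore lay above that of all genes, and in neither IgG library did it. Over both IgG libraries, 4.16% of all genes had a peak in the window, so a count of 0 among 10 genes is close to what the background share gives.

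Sequencing depth, estimated from the peak lists, was higher in the MYT1L libraries than in the controls, as were these counts. The MYT1L libraries had an estimated background of 5.99, 2.25, 5.27 and 4.79 fragments per kb in replicates 1 to 4. Within this group the counts of 9, 7, 7 and 10 genes did not follow depth. The controls were shallower, with 1.55 in IgG replicate 1 and 0.95 in IgG replicate 2. MYT1L peaks were then thinned to the depth of a control and also held to its cutoff, the lowest −log10 p in its list. This cutoff was 5.54 in IgG replicate 1 and 5.58 in IgG replicate 2, against 4.24 to 4.73 in the MYT1L lists. The losses below combine depth and cutoff. In replicates 1 to 4, matched to the deeper control, 2.62, 4.92, 1.82 and 8.89 of the 10 genes were expected to keep a peak. That control had 0. Matched to the shallower control, the expectation was 1.31, 2.36, 0.936 and 6.59 genes, and this control also had 0. MYT1L replicate 4 thus kept a peak at most of the genes when matched to either control, while replicate 3 was left with under 1 gene for the shallower one. For all protein-coding genes, matching to the deeper control left a peak at 17.5%, 29.6%, 15.7% and 52.7% of genes in replicates 1 to 4, against the 1.61% seen there. Matching to the shallower control left 8.92%, 16.4%, 7.75% and 35.6% of all genes, beside 13.1%, 23.6%, 9.36% and 65.9% of the 10. The shares lay closer to each other in replicates 1 to 3 than in replicate 4.

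**Figure D1:**
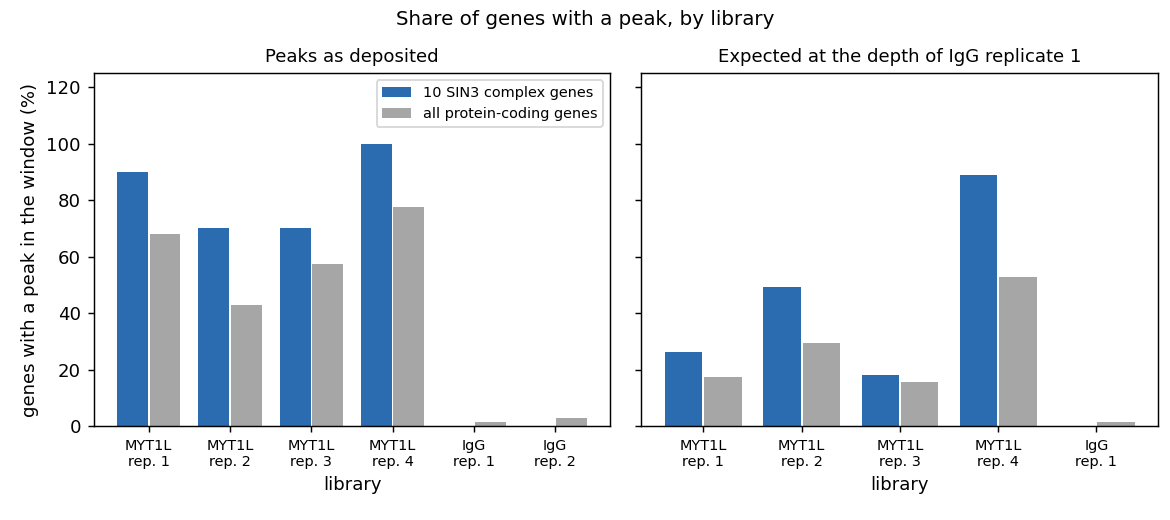
Share of genes with a peak in the gene body or within 5 kb of it (y axis, percent) by library (x axis), for the 10 SIN3 complex genes (blue bars) and all 20037 protein-coding genes (grey bars). The left panel uses the peaks as deposited. The right panel shows the share expected for MYT1L libraries thinned to IgG replicate 1 and held to its lowest −log10 p, beside that control itself. The blue bar is above the grey one in every MYT1L library, and both IgG libraries have 0% of the 10 genes.

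The windows of the 10 genes held 55 peaks, which merged into 26 regions where peaks of the MYT1L libraries overlapped. Of the regions, 4 had a peak in all 4 libraries, 8 in 3, 0 in 2 and 14 in a single library. The single-library regions came from MYT1L replicate 4 in 11 cases, from replicate 1 in 2 and from replicate 3 in 1. A region with peaks in at least 3 MYT1L libraries and no IgG peak is called reproducible here, and 12 were. Of these 12, 9 lay within 1 kb of a start site of the gene itself and 3 did not. Their mean fold enrichment, the peak caller's ratio of signal over background at the summit, ran from 3.85 to 7.79, and their width from 506 to 1423 bp.

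A reproducible region lay in the windows of 8 of the 10 genes (80.0%), all but SIN3B and HDAC1. The same was true of 9624 of all protein-coding genes, or 48.0%, and of 50.6% of the 14118 genes whose length lies between those of the shortest and the longest of the 10. Within 1 kb of a start site, the same 8 of 10 genes had such a region. The share was 40.7% of all protein-coding genes and 43.7% of those in that wide range of length, 6579 to 161278 bp. Among the 15843 with a promoter entry in the RefSeq set it was 43.1%. Because the list was chosen with results of these data known, the shares are set side by side without a test. The distance to all genes was smaller under stricter rules. Among peaks with a deposited −log10 q of 5 or more, SIN3A, HDAC2, ARID4B and RBBP4 passed, 4 of 10 against 30.6% of all genes (at start sites the same 4, against 26.0%). When a region had to have peaks in all 4 libraries, SIN3A, HDAC2, ARID4A and RBBP4 passed, 4 of 10 against 25.3%, and at start sites all of these but SIN3A, 3 of 10 against 21.2%.

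**Figure D2:**
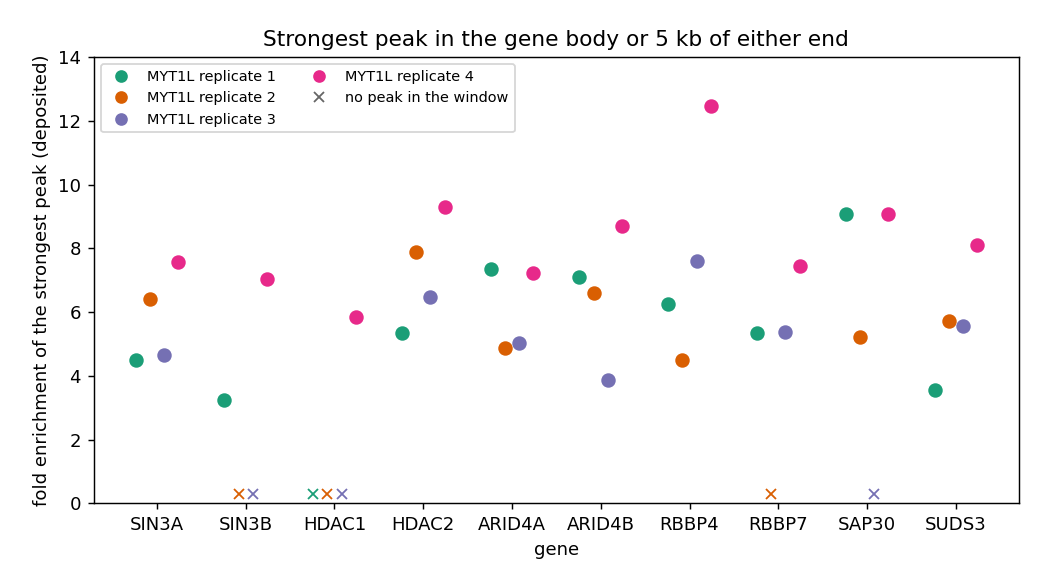
Fold enrichment over background, as deposited, of the strongest peak in each gene's window (y axis) for the 10 genes (x axis); points are the 4 MYT1L libraries and crosses near the axis mark libraries without a peak. MYT1L replicate 4 has a point for every gene, with the highest at 12.5 for RBBP4, while HDAC1 has crosses in the other 3 libraries.

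The scaffolds differed from each other. SIN3A (gene ID 25942; chr15:75369379-75455815, minus strand) had 878, 393, 1103 and 2528 bp of its window covered by peaks in MYT1L replicates 1 to 4, and 0 bp in both IgG libraries. Every MYT1L library lay above both controls, and replicate 4 was the highest. Its mean of 1225.5 ± 917 bp (SD, n = 4) exceeded that of 95.5% of all protein-coding genes, and at start sites alone it exceeded 87.1%. Such ranks, here and for SIN3B, were not adjusted for gene length or number of start sites. The SIN3A window also includes a region beside the start site of a neighbouring gene, described below. Without replicate 4 the mean over the window was 791 bp. SIN3A had 3 reproducible regions. At the inner of its 2 start sites, chr15:75451489-75452248 had folds of 4.50, 4.65 and 4.25 in replicates 1, 3 and 4, and chr15:75450573-75451144, further into the gene, had 3.16, 4.20 and 4.19. These folds were low for their libraries, at or below the 34.5th percentile of all peaks. Ranked by −log10 q, the first region lay at percentiles of 75.4, 61.9 and 70.6 in replicates 1, 3 and 4. The region further into the gene lay at 12.2, 37.6 and 68.6. The outer start site, at 75455815, had no peak within 1 kb in any library. The third region, chr15:75367891-75368601, was the one seen in all 4 libraries, with folds of 3.98, 6.43, 4.52 and 7.56 in replicates 1 to 4. It lay beyond the 3′ end of SIN3A and 6 bp from the start site of the neighbouring gene MAN2C1, which encodes an alpha-mannosidase.

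SIN3B (gene ID 23309; chr19:16829398-16880349, plus strand), a scaffold reported to bind MYT1 family proteins, had the lowest covered length of the 10 genes. Its window was covered over 323 bp in MYT1L replicate 1, 0 bp in replicates 2 and 3, and 554 bp in replicate 4, so MYT1L and IgG libraries overlapped at 0. The peak at the start site, chr19:16829347-16829696, was found in replicate 4 alone, with a fold of 7.05 and its summit 23 bp downstream of the start. At the other end, a peak of replicate 1 (fold 3.23) and one of replicate 4 (fold 4.29) lay near each other inside the gene without overlapping. The mean of 219 bp exceeded that of 33.7% of all genes, and without replicate 4 it was 108 bp.

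Both deacetylase genes were examined next. HDAC2 (gene ID 3066; chr6:113933028-113971148, minus strand) had 1071, 224, 1046 and 1617 bp covered in MYT1L replicates 1 to 4, all above the 0 bp of both controls. A region over its start site, chr6:113970195-113971554, was found in all 4 libraries with folds of 5.34, 7.88, 6.48 and 9.29, a mean of 7.25 ± 1.71 (SD, n = 4). Relative to the start site, with upstream negative, the summits lay at 188, -74, -207 and 53 bp in replicates 1 to 4. In the shallowest MYT1L library, replicate 2, this peak ranked at the 91.0th percentile of fold. At the depth and cutoff of IgG replicate 1 the peak had a 9.18%, 97.3%, 26.1% and 96.5% chance of still being called in replicates 1 to 4. It would thus mostly be lost in replicates 1 and 3. A second region, chr6:113931689-113932194, lay just beyond the 3′ end of HDAC2, outside the gene body, with folds of 5.04, 5.36 and 4.75 in replicates 1, 3 and 4 and summits within 84 bp of each other. No other annotated gene starts or ends within 1 kb of it.

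HDAC1 (gene ID 3065; chr1:32292083-32333626, plus strand) had peaks in MYT1L replicate 4 alone, which covered 2323 bp, the second highest value of that library after SIN3A. The other 3 MYT1L libraries and both IgG libraries had 0 bp. Of the 4 peaks in replicate 4, 1 spanned the start site (chr1:32291925-32292918, fold 5.85, summit 581 bp downstream) and 1 lay inside the gene (fold 4.17). The remaining peaks lay beyond the 3′ end (folds 5.12 and 5.004). They contain the start sites of a long noncoding RNA and of MARCKSL1, a relative of the actin-binding protein MARCKS. HDAC1 and HDAC2 are close relatives that can replace each other in the complex, and each has 1 start site here. Within 1 kb of it, HDAC2 had more peak coverage than HDAC1 in 4 of 4 MYT1L libraries, by 479 ± 238 bp (SD of the difference, n = 4). In replicate 4, the 1 library with peaks at both, the values were 1360 and 994 bp.

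The promoters of this pair, from 250 bases before the start site to 50 bases from it onward, are shown to set a start site with peaks in 4 libraries beside one with a peak in 1. Capitals mark AAGTT on either strand, the core sequence recognised by zinc fingers of the MYT1 family. It occurs at HDAC1, starting at position -242 where the start site is position 0, and not at HDAC2 in this stretch. The HDAC1 peak begins downstream of that AAGTT, and its summit, 581 bp downstream of the start, lies outside the stretch. At HDAC2 the summits of replicates 2 and 3 fall in the stretch, and those of replicates 1 and 4 lie beyond its end.
HDAC2 (chr6:113971099-113971398, minus strand, 4 libraries): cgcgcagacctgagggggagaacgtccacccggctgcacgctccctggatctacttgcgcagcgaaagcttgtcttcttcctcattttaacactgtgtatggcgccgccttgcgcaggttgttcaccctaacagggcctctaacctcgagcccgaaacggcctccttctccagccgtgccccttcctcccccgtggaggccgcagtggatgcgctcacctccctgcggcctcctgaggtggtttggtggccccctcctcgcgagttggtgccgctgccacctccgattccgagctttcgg
HDAC1 (chr1:32291833-32292132, plus strand, 1 library): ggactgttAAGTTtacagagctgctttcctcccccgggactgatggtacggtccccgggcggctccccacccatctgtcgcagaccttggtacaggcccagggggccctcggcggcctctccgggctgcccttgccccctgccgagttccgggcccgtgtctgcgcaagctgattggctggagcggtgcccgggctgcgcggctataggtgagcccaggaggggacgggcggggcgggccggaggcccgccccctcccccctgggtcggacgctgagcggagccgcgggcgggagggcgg
Sequences are from RefSeq for GRCh38.p14, written 5′ to 3′.

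**Figure D3:**
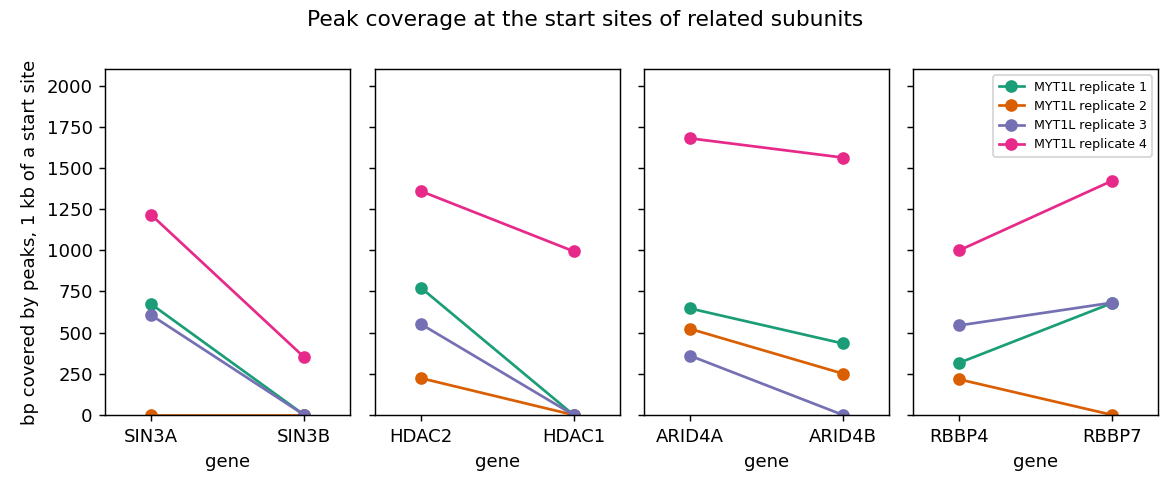
Bases covered by peaks within 1 kb of a start site (y axis, bp) for 4 pairs of related subunits (x axis); each line joins the 2 genes in 1 MYT1L library. HDAC2 is above HDAC1 and ARID4A above ARID4B in all 4 libraries, SIN3A is above SIN3B in 3, and RBBP7 is above RBBP4 in 3.

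The histone-binding subunits both had reproducible regions at their start sites. RBBP4 (gene ID 5928; chr1:32651208-32686211, plus strand) had folds of 6.25, 4.50, 7.62 and 12.5 in replicates 1 to 4 in the region chr1:32650949-32651701, a mean of 7.71 ± 3.41 (SD, n = 4). The replicate 4 value lay at the 97.0th percentile of that library. Replicate 2 had the weakest peak there, at a percentile of 13.2. The summits lay within 263 bp of each other and on both sides of the outer start site. The window was covered over 317, 216, 544 and 1000 bp in replicates 1 to 4, with no overlap with the 0 bp of the controls. The start site of ZBTB8OS, which runs the other way, lies 276 bp from that of RBBP4 and 17 bp outside the region, so the peak cannot be given to 1 of the 2 genes by position.

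RBBP7 (gene ID 5931; chrX:16844341-16870362, minus strand) had a region of 1423 bp at its 2 start sites, chrX:16869581-16871003, the widest of the reproducible ones. Its folds were 5.34, 5.36 and 7.44 in replicates 1, 3 and 4, a mean of 6.05 ± 1.21 (SD, n = 3), and replicate 2 had no peak in the window. No other gene starts or ends within 1 kb of it. RBBP7 had more coverage at its start sites than RBBP4 in 3 of 4 libraries. The mean difference, RBBP4 minus RBBP7, was -177 ± 289 bp (SD, n = 4), smaller than its spread.
The promoter at the outer RBBP4 start site is shown as one overlapped by peaks of all 4 libraries, and it holds no AAGTT. The summits of replicates 1 to 3 fall in this stretch, and that of replicate 4, at 137 bp, falls beyond its end in the overlapping promoter of the inner start site.
RBBP4 (chr1:32650958-32651257, plus strand, 4 libraries): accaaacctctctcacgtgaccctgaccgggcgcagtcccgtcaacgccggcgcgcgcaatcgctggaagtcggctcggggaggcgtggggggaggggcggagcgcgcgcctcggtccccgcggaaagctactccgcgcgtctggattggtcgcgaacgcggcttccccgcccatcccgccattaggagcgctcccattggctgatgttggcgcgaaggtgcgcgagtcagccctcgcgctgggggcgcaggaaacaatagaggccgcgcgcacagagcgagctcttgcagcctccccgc

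The bridging subunits SAP30 and SUDS3 followed. SAP30 (gene ID 8819; chr4:173370954-173377532, plus strand), the shortest of the 10 genes, had 1 reproducible region. This region, chr4:173370751-173372052, had folds of 9.08, 5.23 and 9.07 in replicates 1, 2 and 4, a mean of 7.79 ± 2.22 (SD, n = 3). Replicate 3 had no peak in the window, although it was the second deepest of the MYT1L libraries. The summits lay 115, 77 and 107 bp downstream of the start site in replicates 1, 2 and 4, a spread of 38 bp and the tightest of the start-site regions. The start site of SAP30-DT, a noncoding transcript on the opposite strand, lay 53 bp outside the region.

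SUDS3 (gene ID 64426; chr12:118376555-118418033, plus strand) had 2 reproducible regions. At its start site, chr12:118376110-118376906 had folds of 3.57, 5.71 and 4.53 in replicates 1, 2 and 4, a mean of 4.61 ± 1.07 (SD, n = 3). The replicate 1 peak there was among the weakest of its library, at the 5.66th percentile. The other region, chr12:118372557-118373318, was stronger, with folds of 5.02, 5.56 and 8.10 in replicates 2, 3 and 4. It contains the start site of the neighbouring kinase gene TAOK3, 3648 bp from that of SUDS3. All 4 libraries thus had a peak in the SUDS3 window, and each region lacked 1 of them.

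The chromatin-reader subunits each had a reproducible region in front of or across a start site. ARID4A (gene ID 5926; chr14:58298555-58373876, plus strand) had folds of 7.35, 4.88, 5.04 and 7.24 in replicates 1 to 4 in the region chr14:58297618-58298426, a mean of 6.13 ± 1.35 (SD, n = 4). The summits lay upstream of its start site, at -596, -558, -309 and -510 bp. This start-site region of ARID4A lies outside the gene body and contains the start site of PSMA3-AS1, a noncoding transcript on the opposite strand that begins 418 bp away. The coverage of 647, 523, 360 and 1680 bp in replicates 1 to 4 lay above the controls in every library. A separate peak over the gene's own start, with a fold of 5.01, was found in replicate 4 alone.

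ARID4B (gene ID 51742; chr1:235166902-235328179, minus strand), the longest of the 10 genes, had the region chr1:235327821-235328812 at its outer start site. The strongest peaks had folds of 5.41, 6.60 and 8.70 in replicates 1, 2 and 4, a mean of 6.90 ± 1.67 (SD, n = 3). Replicate 1 had 2 separate peaks within the region, which makes the spread of summits, 585 bp, the widest of the start-site regions. A start site of GGPS1, a gene of isoprenoid synthesis on the opposite strand, lies inside the region. Replicate 3 had only a weak peak deep in the gene (fold 3.87), and replicate 1 had a stronger one (fold 7.09), each found in that library alone. ARID4A had more coverage at its start site than ARID4B in 4 of 4 libraries, by 241 ± 102 bp (SD of the difference, n = 4), although ARID4B has 2 start sites counted and ARID4A 1.

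The ARID4A promoter differs from the others in its base composition and is shown for that. It holds AAGTT at positions -197 and -126, in capitals, and CCAAT or its reverse complement at 6 positions. Its GC content of 48.0% is the lowest among those promoters of the 10 genes that a reproducible region overlapped. The summits of that region, at -596, -558, -309 and -510 bp in replicates 1 to 4, all lie upstream of this stretch. The region ends ahead of the AAGTT at -126.
ARID4A (chr14:58298305-58298604, plus strand, 3 libraries): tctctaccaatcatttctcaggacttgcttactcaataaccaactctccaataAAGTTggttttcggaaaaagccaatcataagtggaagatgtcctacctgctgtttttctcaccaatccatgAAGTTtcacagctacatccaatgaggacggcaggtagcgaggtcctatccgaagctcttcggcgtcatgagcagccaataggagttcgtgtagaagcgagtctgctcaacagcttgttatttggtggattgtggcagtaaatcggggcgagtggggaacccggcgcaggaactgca

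**Figure D4:**
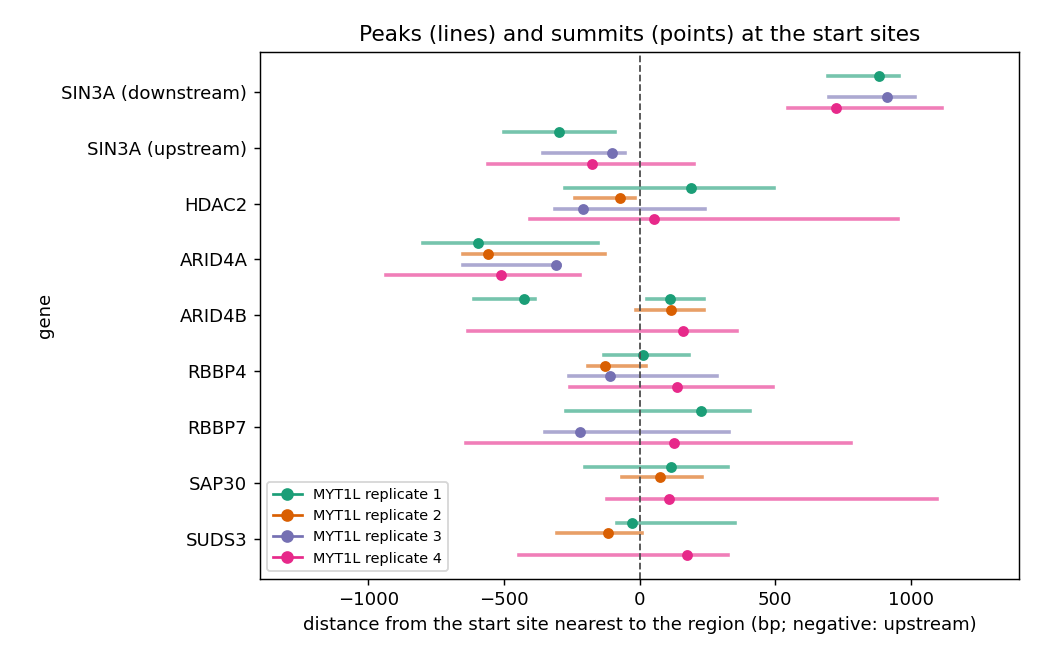
Peaks (lines) and their summits (points) in the 9 reproducible regions at start sites of the genes, by distance from the start site nearest to the region (x axis, bp, negative upstream); 1 start site is used per region; colours are the MYT1L libraries. Summits of SAP30 fall within 38 bp, those of ARID4A lie upstream in all 4 libraries, and those of HDAC2, ARID4B, RBBP4, RBBP7 and SUDS3 lie on both sides of the start site.

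Across the 10 genes, MYT1L replicate 4 had the highest covered length at every gene. This is also its usual place, since it was the highest in 74.3% of the protein-coding genes with a MYT1L peak. All 12 reproducible regions contained a peak of replicate 4, 11 of replicate 1, 9 of replicate 3 and 8 of replicate 2. Leaving replicate 4 out lowered the mean covered length by more than 1.5 times at 6 genes, from 1225.5 to 791 bp at SIN3A, 219 to 108 bp at SIN3B, 581 to 0 bp at HDAC1, 802.5 to 510 bp at ARID4A, 696 to 454 bp at RBBP7 and 569 to 276 bp at SAP30. Covered length was higher in all 4 MYT1L libraries than in both IgG libraries for 6 of the 10 genes, namely SIN3A, HDAC2, ARID4A, ARID4B, RBBP4 and SUDS3. The same held for 32.2% of all protein-coding genes. SIN3A in replicate 2 and SUDS3 in replicate 3 had 0 bp within 1 kb of their own start sites. Their only peaks in those libraries lay at the start sites of MAN2C1 and TAOK3. ARID4B in replicate 3 also had 0 bp at its start sites, and its only peak lay deep in the gene. With 0 bp in both IgG libraries at all 10 genes, the 6 are by construction the genes with a peak in all 4 MYT1L libraries. Over all protein-coding genes 32.8% had such peaks. Among peaks with a −log10 q of 5 or more this count of 6 fell to 2, against 13.4% of all protein-coding genes. With the gene body alone it was also 2, against 23.8%, so there the share of the 10 genes did not exceed that of all genes. For these 6 genes the exact permutation test on covered length gave p = 0.133, two-sided, the smallest value this design allows. Adjusted over the 16853 genes with a peak in any library it was 0.348 (Benjamini-Hochberg). RBBP7 and SAP30 had p = 0.40, SIN3B 0.80 and HDAC1 1.0 in the same exact permutation test. None of the 16853 genes reached 0.05, adjusted or not, which this number of libraries makes impossible.

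Of the 9 reproducible regions at start sites, 6 also had a start site of another gene within 1 kb, as given above for RBBP4, SAP30, ARID4A and ARID4B. At HDAC2 this was the noncoding HDAC2-AS2, 494 bp outside the region, and at SUDS3 a noncoding locus whose start lies inside it. The gene table gives no exons, introns or UTRs, and regions were not assigned to them.

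Promoters of all 10 genes were then compared with the 22199 promoters of protein-coding genes in the RefSeq set. The 10 genes have 13 promoter entries, and 9 of these (69.2%) were overlapped by a reproducible region, against 35.4% of all promoters. RBBP4, RBBP7 and SIN3A have 2 entries each, and those of RBBP4 overlap, so the 13 are not independent. The 5′ ends of ARID4B and SIN3B in the gene table are not among these entries. The median GC content of the 13 was 69.3%, against 62.3% in all promoters and 68.0% in the 7859 with a reproducible region. The median number of CpG dinucleotides was 28 in the 13, 21 in all promoters and 29 in those with a region. In both respects the SIN3 complex promoters lay near the promoters with a region. Since 9 of the 13 belong to that set themselves, this nearness was partly built in.

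Motifs were searched on both strands in these stretches of 300 bases. AAGTT was found in 4 of the 13 promoters, at HDAC1, ARID4A, RBBP7 and an internal start of SIN3B, against 30.05% of all promoters and 20.5% of those with a reproducible region. The longer form AAAGTTT, each match of which contains AAGTT, was found in 1 of the 13, the internal SIN3B start, against 3.66% of all. CCAAT, the box bound by NF-Y, was found in 9 of the 13 (69.2%), against 34.7% of all promoters and 36.5% of those with a region. These entries belong to ARID4A, HDAC1, RBBP4, RBBP7, SIN3A and the internal start of SIN3B. GGGCGG, the GC box bound by SP1, was found in 10 of the 13, against 56.3% of all and 78.6% of those with a region. The overlapping RBBP4 entries share a CCAAT and a GGGCGG match, so both shares count the same site more than once. A match in these letters is a description of the sequence and not evidence of a bound site.

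The other subunits of the complex were counted in the same way. Of 12 further subunits, 8 had a reproducible region in the window (66.7%, against 48.0% of all genes) and 6 of 12 had one at a start site (against 40.7%). Those at a start site were SAP130, ING2, SAP30L, BRMS1L, MORF4L1 and SINHCAF. A merged region counted if any part of it lay within 1 kb of a start site. At SINHCAF the coverage there was 0, 23, 0 and 985 bp in MYT1L replicates 1 to 4, so its place rests mainly on replicate 4. ING2, whose PHD finger binds methylated histone H3, had the highest coverage at its start sites, with 1227, 307, 861 and 2029 bp in MYT1L replicates 1 to 4. SAP30L, the relative of SAP30, had 343, 340, 592 and 1328 bp, with no library at 0. BRMS1 and PHF12 had a reproducible region in the window but not at a start site. SAP18, ING1, OGT and KDM5A had none. ING1 and SAP18 had peaks at a start site in replicates 1 and 4 alone. KDM5A, a demethylase of histone H3, had a region in all 4 libraries that was left out because an IgG library also had a peak. The median coverage at start sites was 549 bp for the 10 genes, 492 bp for the 12 further subunits and 241 bp for all protein-coding genes.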

How the data were processed

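CUT&RUN peak lists of 4 MYT1L and 2 IgG libraries were used, grouped and numbered by the sample titles. In the MYT1L lists the names of the peaks hold a sample number 1 higher than the title, and the titles were followed. Per the submitters' processing notes the tool was MACS2 and the build hg38. The aligner, threshold, control library and pooling are not given in the sources used here. For every peak the authors deposited its fold enrichment, which is a ratio over background, and its −log10 p and −log10 q. The deposited score was not used. These are the caller's own values and were used to describe, rank and filter peaks and to estimate depth. Percentiles are within a list. Means of fold over libraries only describe a region, since the lists differ in depth.

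Peaks on chromosomes 1 to 22, X and Y were used. MYT1L peaks sharing at least 1 bp formed regions, which were checked against bedtools with 0 differences over 49028 regions. Strand and start sites came from the RefSeq promoter set, which has an entry for 15843 of the 20037 protein-coding genes and for all 10 named genes. The 5′ end in the gene table was added as a start site, which the planned rule had not foreseen, and for genes without an entry either end counted. Whole pileups were recovered from fold and −log10 p, within 0.0002, for at least 99.97% of peaks with a −log10 p up to 200. The most frequent background value and the steps between higher values gave fragments per kb, an estimate that assumes the caller's formulas. It also assumes that the background came from the library itself, which the sources used here do not state. For thinning, pileups were reduced binomially and backgrounds in proportion, and a peak was kept if it passed the lowest −log10 p of the control list. These steps were tested on simulated data.

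The members and gene lists were chosen with earlier results of these data known. Counts over lists are given beside the same count over all protein-coding genes, except under some of the alternative settings. All 10 members are named, with every gene of the further SIN3 subunits in each outcome and at most 5 of each other list. The MYT1L gene is named in addition to these. Neighbours are named where they start or end within 1 kb of a region. Alternatives covered the peak threshold, equal list lengths, the number of libraries, overlap, window sizes, depth and leaving out each library. Analyses used Python 3.11.15, pandas 2.3.3 and SciPy 1.17.1. Total read numbers are unknown, so counts of peaks have no interval.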

Additional observations from a re-analysis of the deposited data

Results flagged for a closer look

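At HDAC1, MYT1L replicate 4 stood apart from the other 3 MYT1L libraries in covered length of the window, with 2323 bp against 0 bp in each of them. The gap to the nearest library was the whole range of the group, past Dixon's critical value for 4 values. With the other 3 values tied at 0 this holds for any gene with peaks in a single library, so neither the critical value nor its usual chance rate of about 1 in 20 groups applies here. It was 1 of 17 groups of 4 values examined for the 10 genes. MYT1L replicate 4 also had the longest of the lists, with 30086 peaks, and its part in this result was not tested.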

How the results depend on the processing

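The count of 8 genes with a reproducible region was 4 under a minimum −log10 q of 5 and 4 when all 4 libraries were required, both of which leave fewer regions by construction. It was 7 with lists of equal length, 7 with the gene body alone and 8 with a larger overlap between peaks. The count at start sites, 8, was 4 under that minimum −log10 q, 3 with all 4 libraries and 6 with lists of equal length. Using the start sites of the promoter set only, an alternative chosen after seeing the data, gave 8. Leaving out 1 library also gave 8 for both counts, but 2 of the other 3 MYT1L libraries were then enough, so this could hardly differ and says nothing about stability. The mean of 8.25 genes with a peak per MYT1L library was 6.0 under that minimum and 6.75 with the gene body alone. It was 4.56 and 2.80 at the depth and cutoff of IgG replicates 1 and 2, and 7.67 to 8.67 without each MYT1L library. The count of 6 genes without overlap between the groups was 2 under that minimum, 2 with the gene body alone and 4 with lists of equal length. With the replicate block, pairing libraries of numbers 1 and 2 only, it was 7, and with fewer libraries it cannot be lower. The labels do not say that a number marks a shared culture, and with 0 bp in both controls their deviations could not be correlated. For the same reason no direction could turn at any of the 10 genes. HDAC1 rests on MYT1L replicate 4 alone. No share of all protein-coding genes was computed for lists of equal length, other overlap rules, the replicate block or libraries left out. Nor was one computed for reproducible regions with the gene body alone, or for the mean per library outside the matching to controls. Counts under those settings cannot be set against a background.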

Other observations

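Repressors and corepressors that work with SIN3, and subunits of NuRD, another complex that carries HDAC1, HDAC2, RBBP4 and RBBP7, were counted in the same way. Of 14 DNA-bound recruiters and partner corepressors, 9 had a reproducible region in the window (64.3%, against 48.0% of all protein-coding genes), but 4 had one at a start site (28.6%, against 40.7%). These 4 were KDM1A, RCOR1, MXI1 and NCOR1. KDM1A and RCOR1, the demethylase and the scaffold of the CoREST complex, had 552 ± 243 bp and 956 ± 648 bp covered at their start sites (SD, n = 4 each). MXI1, a MAX partner that recruits SIN3, had 929.5 ± 598 bp (SD, n = 4). At MYT1 itself no region was seen in more than 2 libraries. MYT1L, the gene of the antibody's target, had a reproducible region in its window with peaks in all 4 libraries. Within 1 kb of a start site, however, the MYT1L gene had 0 bp covered in each of MYT1L replicates 1 to 4.

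Of 9 NuRD subunits, 7 had a reproducible region in the window (77.8%) and 6 at a start site (66.7%), shares close to those of the SIN3 complex genes. GATAD2A had 1302.5 ± 585 bp covered at its start sites, MTA2 496.5 ± 295 bp and CHD4, the remodelling ATPase, 532 ± 646 bp (SD, n = 4 each). The value of CHD4 varied by more than its mean. MTA1 and MBD3 had no region in more than 2 libraries.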
